A study of Mus musculus with 12 samples.

Results

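The genes described here drive or mark the cell division cycle: the cyclins and their kinases, the replication machinery, the mitotic apparatus and the inhibitors that hold the cycle back. The list named 46 such genes, and a gene was included where a probe set of the array carried its symbol and no other. Of the 46, 42 had such a probe set, out of 30142 genes named on the array, and 40 passed a filter on low values and were tested. Ccne2 and Bub1 fell under the filter and are given as values. The probe sets of Ccnd1, Mcm7 and Foxm1 also listed another gene, and Ccnb1 had none in the annotation used, so these 4 genes were not analysed here.

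Affymetrix arrays measured RNA of the seminal vesicles, collected when the male C57BL/6 mice were 10 weeks of age. Pups had been injected under the skin with diethylstilbestrol (DES), a synthetic estrogen, with 2 µg for each pup every day from day 1 to day 5 of life, or with corn oil alone (vehicle). The groups were WT given DES (WT_DES), WT given vehicle (WT_vehicle), mice lacking estrogen receptor alpha (aERKO) given DES (aERKO_DES), and aERKO given vehicle (aERKO_vehicle), with 3 arrays each. The labels do not give the knockout allele and do not state whether each sample is a different animal. The p-values therefore describe the spread among 3 samples a group, and that spread may be technical.

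Cyclin D with Cdk4 or Cdk6 phosphorylates the retinoblastoma protein and frees E2F transcription factors, which switch on cyclin E and the genes of DNA synthesis. Cyclin A and cyclin B with Cdk1 then take the cell into mitosis, and many of their partner genes are switched on together late in the cycle through paired CCAAT and CHR promoter elements. In an adult accessory sex gland most epithelial cells are at rest, and RNA of many replication and mitosis genes is made mostly by the cells that are dividing. That does not extend to the D cyclins, their kinases or the inhibitors.

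After neonatal DES, 25 of the 40 genes were higher in the adult WT gland, 1 was lower and 14 were not called (limma, adjusted p under 0.05). Across all 20130 genes tested in the same comparison, 43.9% were called, 20.7% higher and 23.3% lower. The median log2 difference of the 40 genes was 0.391, beside -0.0493 for all genes tested. Cenpe, a kinetochore motor, passed the filter only because it was high in WT_DES. With the filter set on the 9 arrays outside WT_DES, chosen after seeing the data, 24 of 39 genes were higher and 1 lower, beside 19% and 24% of 19571 genes. Among these 39 the increases were widest for Mki67, the antigen of dividing cells, Kif11, a spindle motor, and Top2a, a topoisomerase, and 6 genes rose at least 2-fold, beside 3.18% of the 19571 (with Cenpe 7, beside 4.59% of the 20130). In aERKO mice none of the 40 was called. Because whole tissue was measured, fewer or more cells of a type and less or more RNA per cell cannot be told apart.

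**Figure D1:**
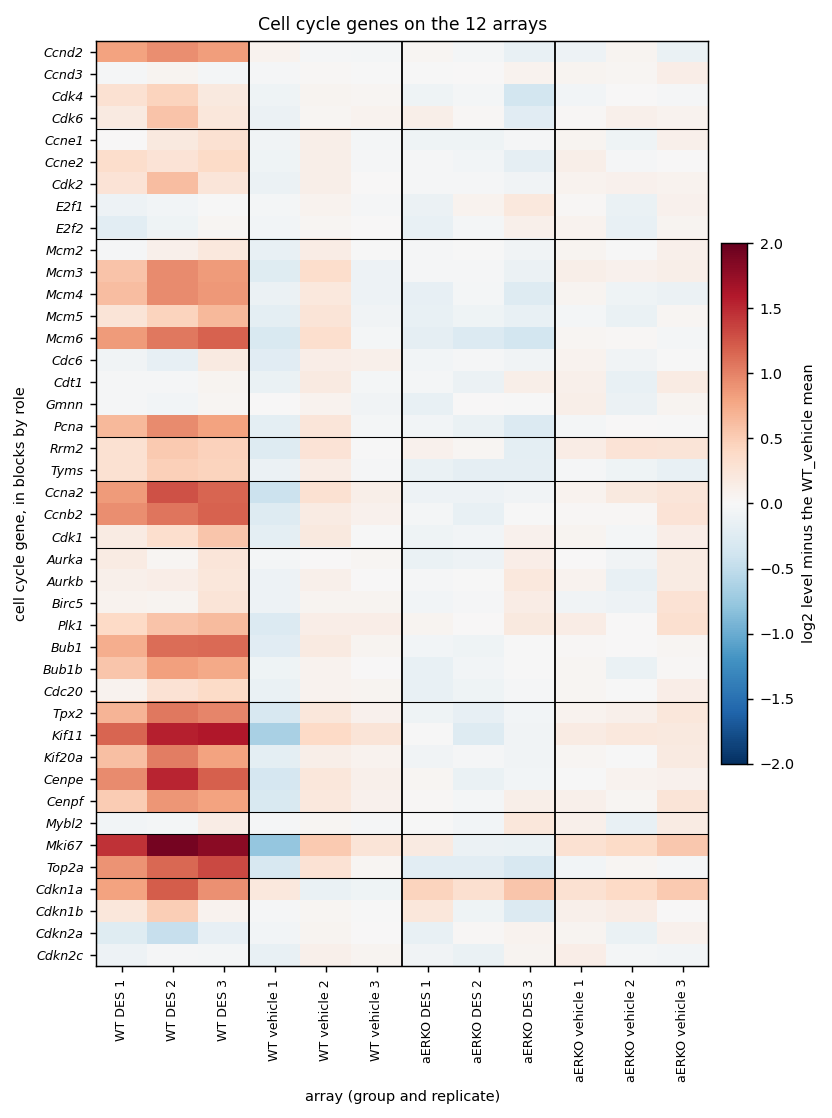
Each row is a cell cycle gene and each column an array, and the colour is the log2 level minus the mean of the 3 WT_vehicle arrays, with rows in blocks by role. The 3 WT_DES columns are red for most genes of replication and mitosis, WT_vehicle 1 is blue for many of the same genes, and the aERKO columns are paler than WT_DES for these genes, with Cdkn1a red on all 6 aERKO arrays and Mki67 red on the 3 aERKO_vehicle arrays.

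Before the results, the arrays themselves were compared. The median log2 value of an array was between 5.95 and 6.14. Across genes, the correlation of WT_DES arrays with those of the other groups was 0.867 to 0.919, against 0.983 to 0.997 among the other 9 arrays. Esr1, the gene of estrogen receptor alpha, was at 6.90 ± 0.0904 in aERKO_DES and at 7.66 ± 0.0965 in WT_DES (SD, n = 3 each). Given vehicle, Esr1 was at 6.99 ± 0.106 in aERKO and 7.75 ± 0.0795 in WT (SD, n = 3 each), a difference of -0.76 (limma adjusted p = 0.00588), while the part of the gene that its probe set covers is not given in the sources used here. Within WT_vehicle, replicate 1 was the lowest array for 37 of the 40 genes and replicate 2 the highest for 35. Within WT_DES, replicate 1 was the lowest for 31 and the highest for none. Relative to the WT_vehicle mean, the 40 genes averaged -0.175, 0.151 and 0.0237 on WT_vehicle replicates 1, 2 and 3. What sets these 2 arrays apart was not tested.

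The promoters of several of these genes carry the elements named above, and 1 window is shown for each of the 10 roles, that of the gene with the largest WT difference among those of the role that have a window, whether or not it holds a motif. Motifs were searched on both strands of RefSeq promoter windows, which run from 250 bases before to 50 bases after a start site on GRCm38.p6. The motifs were CCAAT, the cell cycle genes homology region (CHR) TTTGAA, the E2F sites TTTCCCGC, TTTGGCGC, TTTCGCGC and TTTGCCGC, and the estrogen response element, which is GGTCA and TGACC with 3 bases of any kind between them. Of the 40 genes tested, 33 had a window, 38 windows in all, and Aurkb, Ccna2, Ccnd2, Gmnn, Kif20a, Mcm4 and Tpx2 had none in the table. CHR stood in 10 of 13 windows of G2 and mitosis genes (76.9%), in 2 of 14 windows of G1/S and replication genes (14.3%) and in 17.9% of all 32851 windows. An E2F site stood in 7 of the 14 G1/S and replication windows (50%), in 1 of the 13 G2 and mitosis windows (7.69%) and in 2.26% of all windows. CCAAT stood in 11 of the 13 windows of G2 and mitosis genes (84.6%), in 9 of the 14 of G1/S and replication genes (64.3%) and in 37.4% of all. The estrogen response element stood in 0 of the 38 windows and in 0.07% of all. No motif overlapped one of another kind, and E2F sites overlapped each other in Mcm5 and Mcm6. Capitals mark CCAAT, CHR and E2F matches on either strand.
Cdk6: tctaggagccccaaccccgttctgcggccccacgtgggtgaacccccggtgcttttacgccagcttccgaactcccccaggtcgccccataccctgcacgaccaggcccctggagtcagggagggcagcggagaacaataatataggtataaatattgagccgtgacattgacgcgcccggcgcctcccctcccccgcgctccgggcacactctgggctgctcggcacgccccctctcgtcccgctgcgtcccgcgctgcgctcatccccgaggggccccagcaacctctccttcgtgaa
Cdk2: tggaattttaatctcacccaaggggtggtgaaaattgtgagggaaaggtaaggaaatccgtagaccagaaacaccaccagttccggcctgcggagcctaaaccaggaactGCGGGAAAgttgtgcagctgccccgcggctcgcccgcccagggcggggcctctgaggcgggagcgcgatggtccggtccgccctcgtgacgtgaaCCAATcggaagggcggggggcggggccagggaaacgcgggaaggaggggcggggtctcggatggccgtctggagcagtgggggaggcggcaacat
Mcm6: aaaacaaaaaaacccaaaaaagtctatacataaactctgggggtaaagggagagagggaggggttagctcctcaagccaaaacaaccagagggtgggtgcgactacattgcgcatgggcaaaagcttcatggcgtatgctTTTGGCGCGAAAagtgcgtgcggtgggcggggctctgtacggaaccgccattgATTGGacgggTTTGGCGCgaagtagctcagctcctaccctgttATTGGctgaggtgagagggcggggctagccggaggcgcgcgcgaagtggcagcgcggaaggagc
Rrm2: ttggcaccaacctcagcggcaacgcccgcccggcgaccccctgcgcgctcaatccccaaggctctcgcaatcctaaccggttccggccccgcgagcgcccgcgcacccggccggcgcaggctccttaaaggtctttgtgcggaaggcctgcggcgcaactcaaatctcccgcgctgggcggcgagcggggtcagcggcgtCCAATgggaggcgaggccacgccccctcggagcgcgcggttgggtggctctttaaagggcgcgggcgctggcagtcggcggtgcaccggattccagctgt
Ccnb2: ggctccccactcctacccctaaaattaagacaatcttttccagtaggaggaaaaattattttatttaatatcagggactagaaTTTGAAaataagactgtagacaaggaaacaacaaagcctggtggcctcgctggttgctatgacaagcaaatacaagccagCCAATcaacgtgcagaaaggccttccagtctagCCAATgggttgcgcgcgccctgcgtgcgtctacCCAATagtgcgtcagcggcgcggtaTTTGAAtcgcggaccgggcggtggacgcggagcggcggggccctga
Bub1b: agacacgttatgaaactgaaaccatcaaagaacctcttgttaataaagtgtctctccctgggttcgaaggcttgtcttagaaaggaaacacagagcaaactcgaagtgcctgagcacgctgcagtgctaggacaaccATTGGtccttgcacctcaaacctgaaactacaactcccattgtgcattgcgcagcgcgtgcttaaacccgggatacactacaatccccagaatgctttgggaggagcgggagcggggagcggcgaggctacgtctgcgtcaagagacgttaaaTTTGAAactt
Kif11: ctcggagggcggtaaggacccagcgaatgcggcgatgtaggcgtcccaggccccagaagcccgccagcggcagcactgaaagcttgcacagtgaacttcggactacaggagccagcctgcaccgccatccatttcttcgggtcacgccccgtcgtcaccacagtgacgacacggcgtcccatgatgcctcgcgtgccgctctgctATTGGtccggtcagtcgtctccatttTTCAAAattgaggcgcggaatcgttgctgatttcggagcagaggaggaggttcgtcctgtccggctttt
Mybl2: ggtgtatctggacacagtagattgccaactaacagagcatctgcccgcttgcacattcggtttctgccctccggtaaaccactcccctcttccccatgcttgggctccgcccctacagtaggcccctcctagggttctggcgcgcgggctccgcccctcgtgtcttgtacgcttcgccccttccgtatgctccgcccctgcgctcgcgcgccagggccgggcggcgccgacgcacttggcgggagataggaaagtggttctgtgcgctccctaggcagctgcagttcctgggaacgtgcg
Mki67: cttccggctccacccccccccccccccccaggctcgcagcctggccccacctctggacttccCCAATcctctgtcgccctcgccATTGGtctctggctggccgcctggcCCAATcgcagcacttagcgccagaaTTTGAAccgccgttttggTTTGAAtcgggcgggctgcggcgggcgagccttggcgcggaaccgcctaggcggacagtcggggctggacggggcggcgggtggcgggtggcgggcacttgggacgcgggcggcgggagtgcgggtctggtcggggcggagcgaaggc
Cdkn1a: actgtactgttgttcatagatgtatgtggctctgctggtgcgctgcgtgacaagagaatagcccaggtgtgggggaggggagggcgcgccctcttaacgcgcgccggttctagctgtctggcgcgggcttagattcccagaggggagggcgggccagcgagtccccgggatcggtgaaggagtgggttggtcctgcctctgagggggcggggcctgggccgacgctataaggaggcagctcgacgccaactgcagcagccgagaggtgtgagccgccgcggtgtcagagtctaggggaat
Mki67 (chr7:135716330-135716629, minus strand) and Ccnb2 (chr9:70421505-70421804, minus strand) hold 3 CCAAT boxes each, with 2 CHR matches each. Kif11 (chr19:37376132-37376431, plus strand) and Bub1b (chr2:118597961-118598260, plus strand) also hold both kinds. Mcm6 (chr1:128359656-128359955, minus strand) and Cdk2 (chr10:128705002-128705301, minus strand) hold CCAAT and E2F matches and no CHR. Rrm2 (chr12:24708004-24708303, plus strand) holds CCAAT alone, and Cdk6 (chr5:3343643-3343942, plus strand) and Mybl2 (chr2:163054385-163054684, plus strand) hold none of the motifs. Cdkn1a (chr17:29093519-29093818, plus strand) holds none either, and nor does the other of its 2 windows. Of windows not shown, the Cenpe window, of a gene that rose, holds CCAAT and no CHR, that of Pcna holds CCAAT and no E2F site, and that of Aurka, which was not called, holds CCAAT and CHR. A match is a description of letters in a window, not a site of binding.

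The first step of the cycle was represented by the D cyclins and their kinases, of which 3 of the 4 tested rose. Ccnd2, cyclin D2, was at 9.22, 9.34 and 9.24 on the WT_DES arrays, against 8.47, 8.39 and 8.37 on the WT_vehicle arrays. All 3 WT_DES arrays lay above all WT_vehicle arrays, a log2 difference of 0.86 ± 0.0743 (SE, limma adjusted p = 1.9e-06). Among the 40 genes Ccnd2 had the smallest adjusted p, although 9 others had a wider difference. On the 3 aERKO_DES arrays Ccnd2 was at 8.44, 8.38 and 8.26, and on the aERKO_vehicle arrays at 8.30, 8.47 and 8.27, which overlap. Ccnd3, cyclin D3, differed by 0.00 in WT (95% interval -0.133 to 0.124), so the D cyclins measured here did not move alike.

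The kinases of cyclin D moved less. Cdk4 was at 9.53, 9.67 and 9.42 in WT_DES, against 9.13, 9.27 and 9.25 in WT_vehicle, a difference of 0.32 ± 0.0914 (SE, limma adjusted p = 0.0142). Cdk6 was at 8.08, 8.47 and 8.13 in WT_DES, against 7.78, 7.94 and 7.97 in WT_vehicle, a difference of 0.33 ± 0.109 (SE, limma adjusted p = 0.0297). For both kinases the groups did not overlap, and replicate 2 was the highest WT_DES array.

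At the G1/S transition 1 of the 4 genes tested was called, the kinase. Cdk2, the partner of cyclin E and cyclin A, was at 7.89, 8.23 and 7.86 in WT_DES, against 7.49, 7.73 and 7.63 in WT_vehicle, with no overlap and a difference of 0.38 ± 0.0939 (SE, limma adjusted p = 0.00687). Ccne1, cyclin E1, differed by 0.16 (limma adjusted p = 0.132), and its groups overlapped. It was called with quantile normalization (0.0248), after the shift to the hybridization controls (0.00942) and without WT_DES 1 (0.0375). E2f1 and E2f2, the activating E2F factors, differed by -0.06 and -0.09 with adjusted p of 0.598 and 0.441. The 95% interval of the E2f1 difference ran from -0.244 to 0.129. Ccne2, cyclin E2, lay below the array median on every array and differed by 0.33, with 5.75, 5.66 and 5.78 in WT_DES against 5.31, 5.51 and 5.38 in WT_vehicle. In a fit with no filter its limma adjusted p was 0.00596, while its WT_vehicle mean lay only 0.0922 above that of the background controls.

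Of the 9 genes tested for origin licensing and replication, 5 rose and 4 were not called. Mcm6, a subunit of the replicative helicase, was at 8.07, 8.26 and 8.40 in WT_DES, against 6.91, 7.56 and 7.18 in WT_vehicle. No array overlapped, and the difference was 1.03 ± 0.134 (SE, limma adjusted p = 7.07e-05), a 2.04-fold change. Mcm4, another helicase subunit, was at 8.03, 8.35 and 8.29 in WT_DES, against 7.29, 7.63 and 7.32 in WT_vehicle, a difference of 0.81 ± 0.109 (SE, limma adjusted p = 9.43e-05). Pcna, the sliding clamp of DNA polymerase, was at 8.57, 8.87 and 8.72 in WT_DES, against 7.72, 8.17 and 7.88 in WT_vehicle, a difference of 0.80 ± 0.109 (SE, limma adjusted p = 0.000103). Groups did not overlap for Mcm4 or Pcna either.

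The helicase subunits were unequal. Mcm3 and Mcm5 rose by 0.79 and 0.45 on the log2 scale, with adjusted p of 0.000445 and 0.00758, whereas Mcm2 differed by 0.10 with an interval of -0.084 to 0.275. The licensing factors Cdc6 and Cdt1, which load the helicase, differed by -0.02 and 0.00, and Gmnn, the inhibitor of Cdt1, by -0.01. None of these 4 was called, and their groups overlapped. Both genes of nucleotide supply rose. Rrm2, the regulatory subunit of ribonucleotide reductase, was at 7.52, 7.75 and 7.68 in WT_DES, against 6.96, 7.50 and 7.21 in WT_vehicle, a difference of 0.43 ± 0.122 (SE, limma adjusted p = 0.0142). Its closest arrays, WT_DES 1 and WT_vehicle 2, lay 7.52 against 7.50. Tyms, thymidylate synthase, was at 6.86, 7.03 and 6.998 in WT_DES, against 6.43, 6.71 and 6.53 in WT_vehicle, a difference of 0.41 ± 0.0776 (SE, limma adjusted p = 0.00124).

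**Figure D2:**
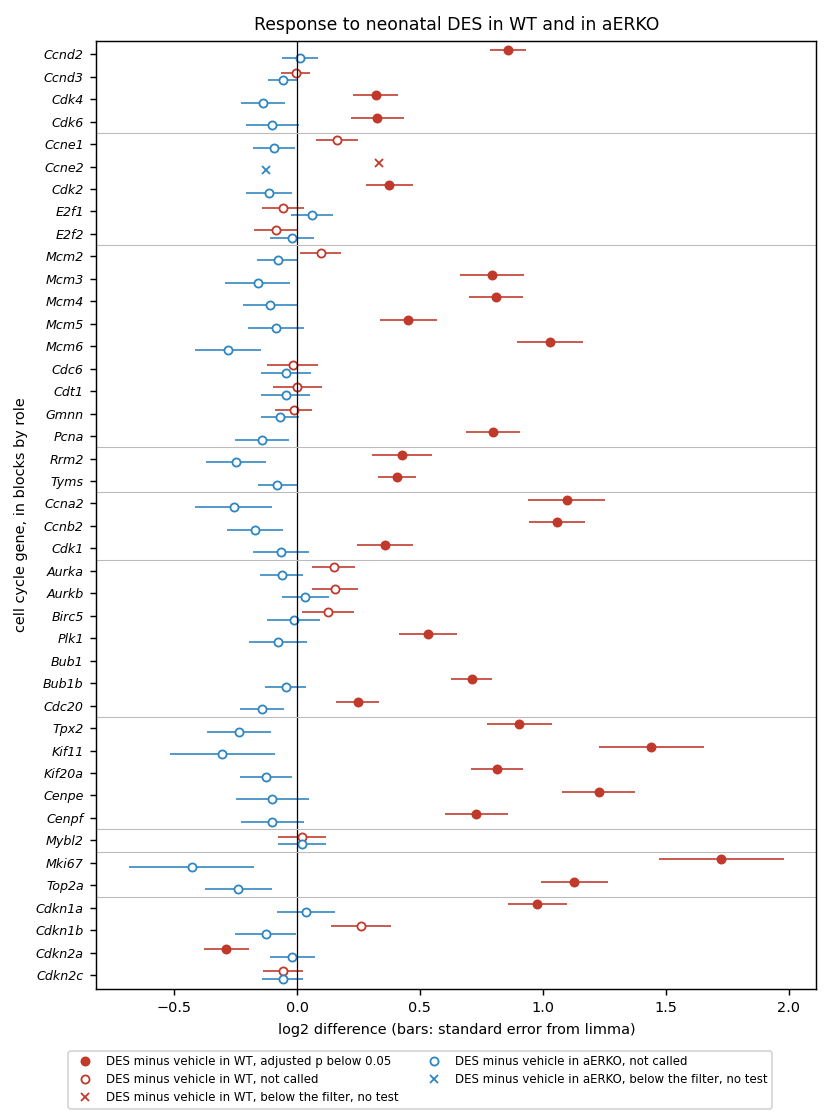
Log2 difference of DES minus vehicle for each gene, with the standard error from limma, in WT (red) and aERKO (blue). Filled points have an adjusted p below 0.05, open points do not, and the crosses are Ccne2, which is below the filter. Bub1 has no point, since its mean lay under the background controls in 3 groups. Red points reach 1.73 for Mki67, and the blue points run from -0.43 to 0.06, none of them filled. Cdkn2a, the only filled point left of 0, moved to 0.07 when arrays were shifted to the hybridization controls.

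The cyclins of S phase and mitosis and their kinase rose. Ccna2, cyclin A2, was at 7.67, 8.09 and 7.99 in WT_DES, against 6.39, 7.13 and 6.94 in WT_vehicle, a difference of 1.10 ± 0.157 (SE, limma adjusted p = 0.000147). Ccnb2, cyclin B2, whose promoter is shown above, was at 8.04, 8.18 and 8.31 in WT_DES, against 6.85, 7.29 and 7.21 in WT_vehicle. Its groups did not overlap, with a difference of 1.06 ± 0.115 (SE, limma adjusted p = 1.48e-05). Cdk1 was at 6.94, 7.11 and 7.33 in WT_DES, against 6.58, 6.97 and 6.77 in WT_vehicle, a difference of 0.36 ± 0.113 (SE, limma adjusted p = 0.0225). The Cdk1 groups overlapped, since WT_vehicle 2 lay above WT_DES 1.

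Among the mitotic kinases, checkpoint and anaphase genes 3 of the 6 tested rose. Bub1b, the spindle checkpoint kinase BubR1, was at 6.65, 6.93 and 6.86 in WT_DES, against 6.01, 6.18 and 6.11 in WT_vehicle, a difference of 0.71 ± 0.0833 (SE, limma adjusted p = 2.91e-05). Plk1, the polo-like kinase of mitotic entry, was at 7.73, 7.91 and 7.97 in WT_DES, against 7.07, 7.46 and 7.47 in WT_vehicle, a difference of 0.53 ± 0.117 (SE, limma adjusted p = 0.00319). In both genes every WT_DES array lay above every WT_vehicle array. Cdc20, the activator of the anaphase-promoting complex, was at 6.34, 6.56 and 6.66 in WT_DES, against 6.14, 6.35 and 6.33 in WT_vehicle. Those groups overlapped, and the difference of 0.25 ± 0.0879 (SE, limma adjusted p = 0.0385) was the smallest increase called among the 40.

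Aurka, Aurkb and Birc5, which are the aurora kinases and the survivin subunit that guides Aurkb, differed by 0.15, 0.15 and 0.13 and were not called, with adjusted p of 0.18, 0.199 and 0.348. The upper ends of their 95% intervals were 0.339, 0.36 and 0.355. Bub1, the checkpoint kinase that recruits BubR1, was at 5.59, 5.97 and 5.99 in WT_DES, against 4.63, 5.04 and 4.91 in WT_vehicle. It exceeded the array median on 1 array, and in WT_vehicle its mean minus that of the 23 background controls was -0.445. No difference is given for Bub1, since its WT_vehicle level is only an upper bound.

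All 4 spindle and kinetochore genes that passed the filter without the WT_DES arrays rose, and Cenpe is described with them. Kif11, the motor that pushes spindle poles apart, was at 7.53, 7.92 and 7.96 in WT_DES, against 5.71, 6.76 and 6.61 in WT_vehicle, a difference of 1.44 ± 0.213 (SE, limma adjusted p = 0.000188). Cenpe, the kinetochore motor, was at 6.64, 7.21 and 6.89 in WT_DES, against 5.35, 5.91 and 5.79 in WT_vehicle, a difference of 1.23 ± 0.148 (SE, limma adjusted p = 3.74e-05). Cenpe lay below the array median on all 9 arrays outside WT_DES, so its call is no support for the group. Tpx2, the spindle assembly factor that activates Aurka, was at 7.48, 7.86 and 7.79 in WT_DES, against 6.48, 7.04 and 6.90 in WT_vehicle, a difference of 0.90 ± 0.131 (SE, limma adjusted p = 0.000159). Kif20a, a motor of the central spindle, and Cenpf, a kinetochore protein, rose by 0.81 and 0.73 with adjusted p of 7.14e-05 and 0.000725. For all 5 genes the WT groups did not overlap. Mybl2, the B-Myb factor of G2/M transcription, differed by 0.02 with an interval of -0.192 to 0.234 and was not called.

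Mki67 was at 9.54, 10.00 and 9.90 in WT_DES, against 7.31, 8.61 and 8.34 in WT_vehicle, a difference of 1.73 ± 0.254 (SE, limma adjusted p = 0.000182) or 3.31-fold. On the arrays of the knockout it was at 8.27, 7.98 and 7.96 in aERKO_DES and at 8.39, 8.47 and 8.63 in aERKO_vehicle. The lowest WT_DES array stood above all 9 others, and WT_vehicle 1 stood below all 11 others. Top2a, the topoisomerase that untangles chromosomes before mitosis, was at 7.94, 8.19 and 8.36 in WT_DES, against 6.72, 7.32 and 7.07 in WT_vehicle, a difference of 1.13 ± 0.135 (SE, limma adjusted p = 3.49e-05). Neither gene's groups overlapped in WT.

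The inhibitors of cyclin-dependent kinases gave 1 gene of 4 that rose, 1 that fell as deposited but not after the shift to the hybridization controls, and 2 that were not called, shares close to the 20.7% and 23.3% of all genes tested. Cdkn1a, the p21 inhibitor that the p53 pathway and several growth signals switch on, was at 8.27, 8.68 and 8.39 in WT_DES, against 7.69, 7.34 and 7.38 in WT_vehicle. It rose by 0.98 ± 0.119 on the log2 scale (SE, limma adjusted p = 3.97e-05), 1.97-fold, with no overlap. Its level on WT_vehicle 1 was the highest of that group, the array on which most of the other genes were lowest. In the knockout, Cdkn1a was at 7.91, 7.79 and 8.03 in aERKO_DES and at 7.77, 7.86 and 7.99 in aERKO_vehicle.

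Cdkn1b, the p27 inhibitor of resting cells, was at 8.72, 8.99 and 8.56 in WT_DES, against 8.47, 8.53 and 8.49 in WT_vehicle. Those groups did not overlap, but the difference of 0.26 ± 0.123 was not called (SE, limma adjusted p = 0.101). Cdkn1b was called without WT_DES 3 (0.0363) and after the shift to the hybridization controls (0.00196). Cdkn2a, the locus of p16 and p19Arf, was at 6.66, 6.45 and 6.74 in WT_DES, against 6.85, 6.96 and 6.91 in WT_vehicle, and fell by 0.29 on the log2 scale (SE 0.0914, limma adjusted p = 0.0233), but stood at 0.07 (adjusted p = 0.745) when arrays were shifted to the hybridization controls. Cdkn2c, the p18 inhibitor, was at 7.10, 7.19 and 7.16 in WT_DES, against 7.05, 7.31 and 7.26 in WT_vehicle, an overlap with a difference of -0.06 (adjusted p = 0.591).

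**Figure D3:**
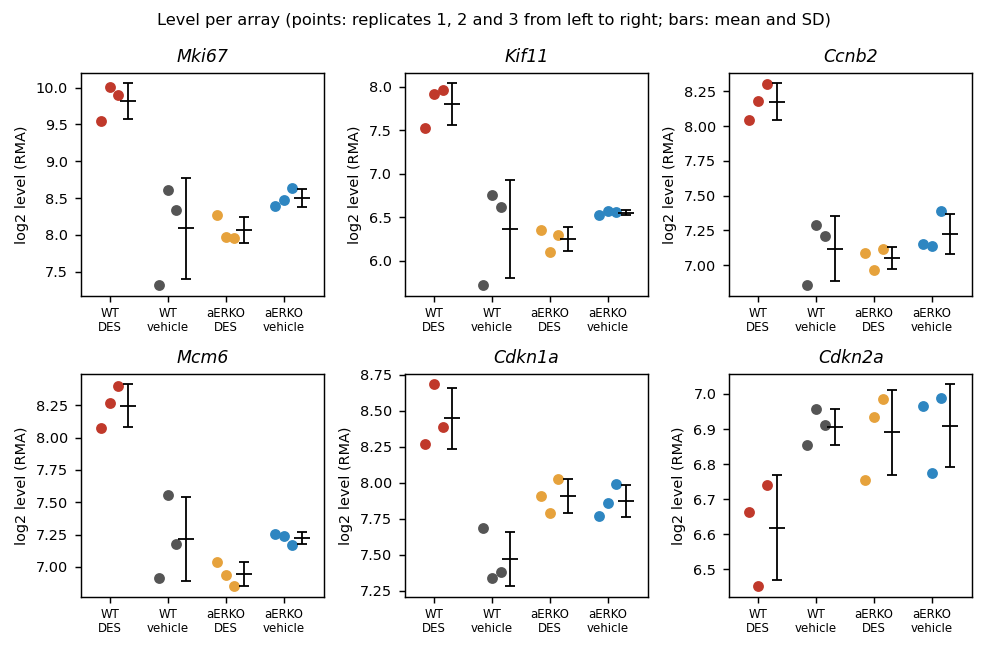
Log2 level on each array for 6 genes, in 4 groups of 3 points, with the group mean and SD beside them. The WT_DES points lie above all others for Mki67, Kif11, Ccnb2, Mcm6 and Cdkn1a, the aERKO points of Cdkn1a lie between the WT groups, and the lower WT_DES points of Cdkn2a depend on the scaling, since the difference was 0.07 after a shift to the hybridization controls.

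In WT, 26 of the 40 genes had no overlap between the groups, 25 higher and 1 lower, beside 60.9% of all genes tested, 25.8% higher and 35.1% lower. The 25 include Cenpe, which passed the filter only through WT_DES. The calls of 6 genes rested on single arrays. Without WT_DES 2 the adjusted p was 0.0613 for Cdk4, 0.126 for Cdk6, 0.0558 for Rrm2, 0.0509 for Cdk1, 0.103 for Cdc20 and 0.0982 for Cdkn2a. Without WT_vehicle 1 it was 0.0592 for Cdk4, 0.109 for Cdk6, 0.0635 for Rrm2, 0.1 for Cdk1 and 0.154 for Cdc20. Without WT_DES 3, Cdk1 and Cdc20 were lost, with adjusted p of 0.0779 and 0.123. Without WT_vehicle 2, Cdk6, Cdc20 and Cdkn2a were lost (0.0571, 0.0504 and 0.0763), and without WT_vehicle 3, Cdk1, Cdc20 and Cdkn2a (0.0584, 0.0576 and 0.0608). Leaving out aERKO_DES 2 or aERKO_vehicle 1, which share only the estimate of spread, gave Cdc20 an adjusted p of 0.0509. The other 20 genes that rose kept an adjusted p under 0.05 whichever array was left out. Under other settings Cdk6, Cdk1 and Cdc20 lost the call with a shift to the median of tested genes (0.06, 0.0519 and 0.112), Cdk1 and Cdc20 with only the WT groups (0.052 and 0.0752), and Cdc20 with no filter (0.054).

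In aERKO mice 0 of the 40 genes and 0% of the 20130 genes tested were called after DES (limma), where 263 genes had an unadjusted p under 0.05 and none of the 40 did. The fit shared its estimate of a gene's spread across all groups, WT included. The median SD of the 40 genes was 0.0929 in aERKO_DES and 0.0913 in aERKO_vehicle, against 0.151 in WT_DES and 0.157 in WT_vehicle. The unadjusted p-values and 95% intervals given for aERKO therefore include the wider WT spread. With only the groups compared in the fit, none of the 40 was called either. The differences in aERKO ran from -0.43 for Mki67 to 0.06 for E2f1, with a median of -0.0899 beside -0.012 for all genes tested. Of the 40, 35 lay below 0, among them 23 of the 25 genes that rose in WT. After the shift of arrays to the hybridization controls the median of the 40 was 0.0419, beside 0.12 for all genes tested, so under that scaling the sign turned and the 40 still lay below the median of all genes. In 13 genes every aERKO_DES array lay below every aERKO_vehicle array, and in 0 above, beside 4.56% and 1.56% of all genes tested (6.12% together). These were Cdk2, Mcm3, Mcm6, Pcna, Rrm2, Ccna2, Ccnb2, Cdc20, Tpx2, Kif11, Kif20a, Mki67 and Top2a, each with an adjusted p of 0.999. The 95% interval of the Mki67 difference ran from -0.981 to 0.123 and that of Mcm6 from -0.572 to 0.0117. For Cdkn1a the interval was -0.222 to 0.295 around a difference of 0.04.

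The interaction term of the same fit, the WT response minus the aERKO response, was called above 0 for 23 of the 40 genes and below 0 for 0, beside 14.1% above and 9.16% below for all genes tested. The median term was 0.488 for the 40 and -0.0332 for all. Cenpe, which passed the filter only through WT_DES, is among the 23, and its term is no support for the group. The largest terms were 2.15 ± 0.359 for Mki67 (SE, limma adjusted p = 0.00101), 1.74 ± 0.301 for Kif11 (adjusted p = 0.00132) and 1.37 ± 0.191 for Top2a (adjusted p = 0.000264). Cdkn1a had a term of 0.94 ± 0.168 (SE, limma adjusted p = 0.00168). Cdk6, Cdk1 and Cdkn2a were called in WT, but their interaction was not, with terms of 0.43, 0.42 and -0.27 and adjusted p of 0.0638, 0.0726 and 0.142. For these 3 a different response in the 2 genotypes was not shown.

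**Figure D4:**
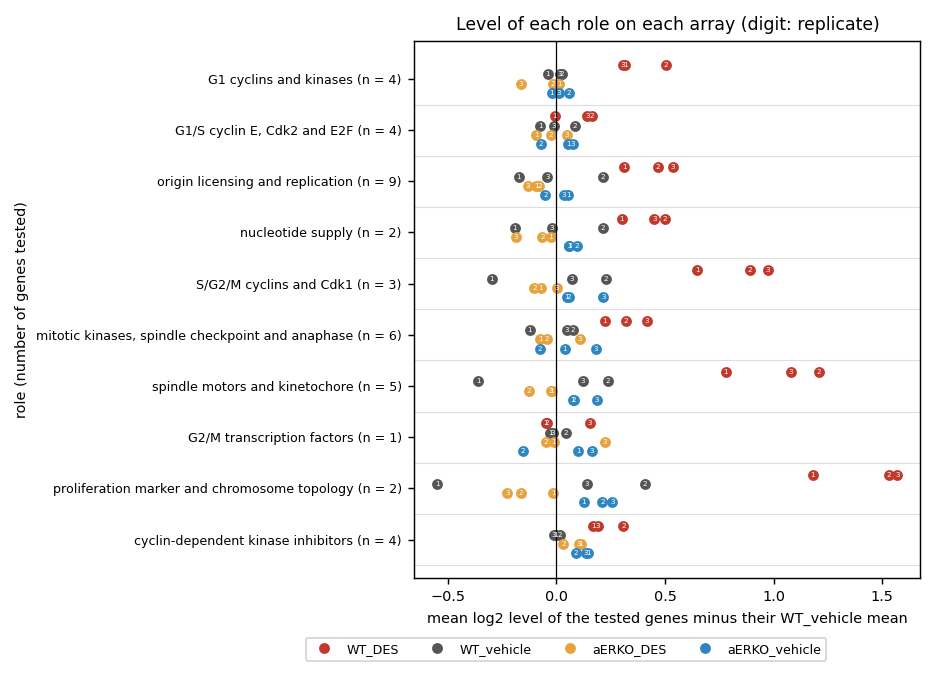
Mean log2 level of the genes of each role on each array, minus their WT_vehicle mean, with the replicate number in each point. The WT_DES points of spindle motors and kinetochore genes lie at 0.781, 1.21 and 1.08, and those of the inhibitors at 0.169, 0.308 and 0.192. The spindle and kinetochore mean includes Cenpe, which passed the filter only through WT_DES. WT_vehicle 1 is the leftmost point of its group for the replication and mitotic roles, at -0.36 for spindle motors.

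Given vehicle, aERKO and WT differed in 0 of the 40 genes (limma), beside 0.0248% of all genes tested, 5 genes, with 864 at an unadjusted p under 0.05. The groups did not overlap for Ccnd3 and Cdkn1a, both higher in aERKO, beside 12.1% of all genes tested. Cdkn1a differed by 0.40 ± 0.119 (SE, limma adjusted p = 0.74, 95% interval 0.145 to 0.662). Mki67 differed by 0.41 with an interval of -0.143 to 0.961.

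Given DES, 26 of the 40 genes were lower in aERKO than in WT and 1, Cdkn2a, was higher, beside 52.1% of all genes tested, 24.6% lower and 27.5% higher. The comparison shares the WT_DES arrays with that of DES in WT, and the 26 include Cenpe, which passed the filter only through WT_DES. Mki67 differed by -1.75 and Kif11 by -1.55 (adjusted p = 0.000158 and 9.89e-05). Ccne1, which was not called in WT, was at 6.38, 6.38 and 6.44 in aERKO_DES, against 6.47, 6.66 and 6.77 in WT_DES. It fell by 0.24 on the log2 scale with no overlap (limma adjusted p = 0.0356), and the call was lost without any 1 of aERKO_DES 1, aERKO_DES 2, aERKO_DES 3, WT_DES 2 or WT_DES 3 (0.0762, 0.0859, 0.0519, 0.0893 and 0.121). Cdkn2a was at 6.75, 6.93 and 6.98 in aERKO_DES, against 6.66, 6.45 and 6.74 in WT_DES, a difference of 0.27 (limma adjusted p = 0.0258) that stood at 0.05 (adjusted p = 0.846) after the shift to the hybridization controls. Cdk6 was lost without aERKO_DES 3 (0.0704) or WT_DES 2 (0.0717), and Cdk1 without WT_DES 3 (0.055). The Cdkn2a call was lost without aERKO_DES 2, aERKO_DES 3 or WT_DES 2 (0.074, 0.088 and 0.11). With only the groups compared in the fit, Ccne1, Cdk6 and Cdkn2a lost the call (0.0809, 0.0543 and 0.0693). Ccne1 also lost it with a shift to the median of tested genes (0.152).

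Neighbouring genes of the same pathway were counted in WT, with the filter over all 12 arrays. Genes of these lists that passed it only through WT_DES were not set apart. Of 34 other mitosis genes tested, 25 rose and 0 fell, led by Hmmr, a spindle-associated hyaluronan receptor, at 1.12, Kif23, a motor of cytokinesis, at 1.06, and Ect2, which starts the cleavage furrow, at 1.05. Of 31 other replication genes, 12 rose and 0 fell, with Rrm1, the large subunit of ribonucleotide reductase, at 0.85 and the polymerase epsilon subunits Pole2 and Pole at 0.51 and 0.48. The median difference was 0.479 for the mitosis list and 0.176 for the replication list, beside -0.0493 for all genes tested. In the list of other inhibitors, retinoblastoma family, E2F and DREAM genes, 4 of 18 rose and 2 fell: Rbl1 and Rb1, which encode p107 and the retinoblastoma protein, rose by 0.52 and 0.47, and Tfdp2, an E2F partner, fell by 0.51, but was not called after the shift to the hybridization controls (-0.15, limma adjusted p = 0.423). The 4 of 18 that rose (22.2%) are near the 20.7% of all genes tested, and the 2 that fell are a smaller share than the 23.3%. With that shift, which called 41.5% of all genes higher and 1.74% lower, 9 of the 18, 25 of the 31 replication genes and 29 of the 34 mitosis genes rose and 0 on these lists fell, while a shift to the median of tested genes left 7 of the 31 replication genes higher and 0 lower.

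Genes of p53 and its targets went both ways, with 5 of 15 higher and 3 lower in WT_DES than in WT_vehicle, beside 20.7% and 23.3% of all genes tested. After the shift to the hybridization controls 8 were higher and 0 lower, beside 41.5% and 1.74% of all genes tested. Pmaip1, Plk2 and Sesn1 rose by 0.81, 0.81 and 0.60. The 3 that fell, named after their values were seen, were Bbc3, Mdm2 and Sesn2, by 0.43, 0.33 and 0.17 (limma adjusted p = 0.00446, 0.00769 and 0.0479), and with that shift they stood at -0.08, 0.03 and 0.19 and were not called (0.723, 0.902 and 0.333). Of 9 DNA damage checkpoint and recombination genes 2 rose, Blm, a helicase, by 0.56 and Brca1 by 0.37, a share near the 20.7% of all genes tested. With the shift all 9 rose, beside 41.5% of all genes tested. None of the genes on these 5 lists was called after DES in aERKO, beside 0% of all genes tested.

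**Figure D5:**
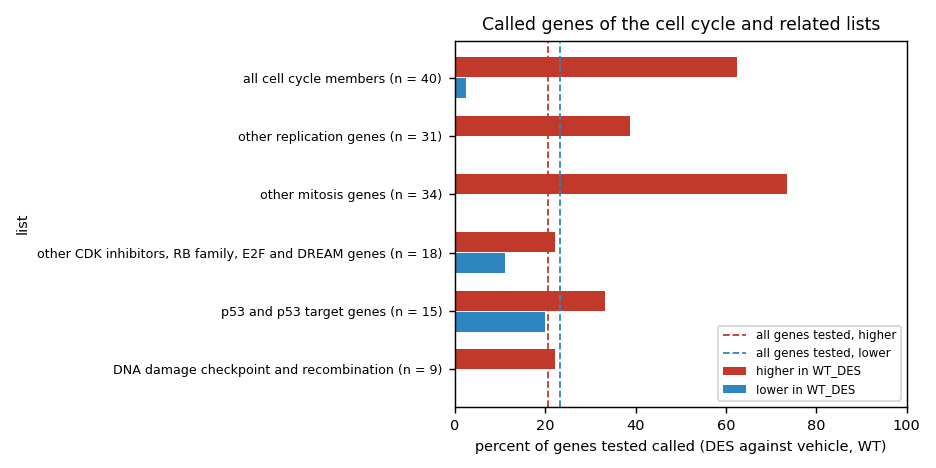
Percent of the genes tested on each list that were called in WT, higher (red) or lower (blue) in WT_DES, with dashed lines for all genes tested, at 20.7% higher and 23.3% lower. The red bars of the mitosis list (73.5%), the 40 cell cycle genes (62.5%) and the replication list (38.7%) reach past the red dashed line, as do those of the p53 list (33.3%) and, by little, the lists of inhibitors and E2F genes (22.2%) and of DNA damage genes (22.2%), and no blue bar reaches the blue one. The blue bars depend on the scaling, since 0 genes of these lists were lower after the shift to the hybridization controls. Cenpe, which passed the filter only through WT_DES, is counted in the bar of the 40. Such genes were not set apart on the other lists.

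Markers of other cells moved in the same comparison, and their part in the increases of the cell cycle genes was not tested. The filter counts the WT_DES arrays, so a marker low elsewhere could enter the test only by being high there. Such markers were not set apart. Of all genes tested, 20.7% were higher and 23.3% lower in WT_DES than in WT_vehicle. In WT, 10 of 10 macrophage markers, 7 of 7 neutrophil, 6 of 7 B and plasma cell and 5 of 6 T cell markers were higher after DES. So were 8 of 8 basal and squamous, 5 of 5 fibroblast and 5 of 5 endothelial markers, with Krt5, a basal keratin, higher by 1.62 and Lyz2, a macrophage lysozyme, by 4.13. Of the luminal markers 5 of 8 were higher and 2 lower, the latter near the 23.3% of all genes tested. Of the smooth muscle markers 5 of 6 were lower, as were 5 of 8 secretion markers. After the shift to the hybridization controls 0 luminal, 0 smooth muscle and 1 of the secretion markers were lower, beside 1.74% of all genes tested. The summed log2 level of the macrophage list ran from 97.11 to 101.6 in WT_DES, against 74.96 to 77.66 in WT_vehicle, and from 75.25 to 78.23 in aERKO_DES, against 75.13 to 75.59 in aERKO_vehicle. That of the neutrophil list ran from 61.56 to 66.35 in WT_DES, against 39.41 to 39.95 in WT_vehicle. The basal and squamous sum ran from 73.71 to 77.14 in WT_DES, against 58.49 to 59.29 in WT_vehicle. B and plasma cell markers summed to between 54.05 and 56.72 in WT_DES, against 43.74 and 44.17 in WT_vehicle, and T cell markers to between 42.98 and 45.77 in WT_DES, against 37.09 and 38.66 in WT_vehicle. Fibroblast markers summed to between 53.55 and 55.89 in WT_DES, against 43.62 and 45.57 in WT_vehicle, and smooth muscle markers to between 67.83 and 68.96 in WT_DES, against 70.57 and 71.35 in WT_vehicle. No marker on these 10 lists was called after DES in aERKO, beside 0% of all genes tested. The array controls moved as well between WT_DES and WT_vehicle: the hybridization controls by -0.357, the background controls by -0.435 and the poly-A controls by -0.767. Between aERKO_DES and aERKO_vehicle the same sets moved by -0.132, -0.0511 and -0.242. In WT, shifting arrays to the hybridization controls put the median of all genes at 0.308 and that of the 40 at 0.749. It called 8351 genes higher (41.5%) and 350 lower (1.74%) in WT, beside 4158 higher and 4684 lower as deposited, and 31 of the 40 higher and 0 lower.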

How the data were processed

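Per the submitters' processing notes, the authors used Affymetrix Expression Console and RMA, and the deposited table holds log2 values per probe set for 12 arrays. RMA corrects background, makes the arrays' distributions equal and combines probes into sets, so a broad shift in one group can push unchanged genes the other way. Each array took 300 ng of RNA per the labels. The sources used here give neither software versions nor the array's genome build.

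The table held 72688 probe sets, 186 of them array controls. The platform annotation gave a single symbol for 30604 and several for 2146, and the GRCm38.p6 gene table updated 827 symbols. Where a gene had several probe sets, that of highest mean stood for it. Genes above the array's median on at least 3 of 12 arrays were tested, which kept 20130 of 30142.

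In R 4.3.3, limma 3.58.1 fitted group means over all 12 arrays (lmFit, then eBayes), for 5 comparisons. Tests were two-sided, adjusted by Benjamini-Hochberg across every gene tested, with a threshold of 0.05. The scripts were tested on simulated data. No exact permutation test was used, since with 3 arrays against 3 its smallest p is 0.1. The number of arrays limits the precision. The members and lists were chosen with earlier results of these data known. All 46 members are named, with arrays printed for up to 3 called members per role and for the inhibitors. On other lists the 3 largest called differences are named.

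Alternatives changed the filter, the probe set rule, the moderation, the arrays in the fit, the scaling (median, hybridization controls, quantile), the replicate block, and left out each array in turn. Same-numbered arrays deviated together in 6 of 18 pairs (correlation over 0.1), and the correlations ran from -0.355 to 0.52. The labels do not say whether the numbers pair the samples, and the main fit did not pair them. Promoter windows are RefSeq sequences on GRCm38.p6.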

Additional observations from a re-analysis of the deposited data

Results flagged for a closer look

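For 23 genes the response to DES differed between WT and aERKO by the interaction term (WT response minus aERKO response, log2, limma adjusted p under 0.05), beside 23.3% of all genes tested. They include Cenpe, which passed the filter only through WT_DES. Among genes of the first phase the term was 0.85 for Ccnd2, 0.46 for Cdk4 and 0.49 for Cdk2. Among replication and nucleotide genes it was 1.31 for Mcm6, 0.95 for Mcm3, 0.94 for Pcna, 0.92 for Mcm4, 0.67 for Rrm2, 0.54 for Mcm5 and 0.49 for Tyms. Among mitotic genes it was 2.15 for Mki67, 1.74 for Kif11, 1.37 for Top2a, 1.35 for Ccna2, 1.33 for Cenpe, 1.23 for Ccnb2, 1.14 for Tpx2, 0.94 for Kif20a, 0.83 for Cenpf, 0.76 for Bub1b, 0.61 for Plk1 and 0.39 for Cdc20. The inhibitor Cdkn1a had a term of 0.94.

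The terms of 5 genes lost their call when single arrays were left out. For Cdc20 the adjusted p was between 0.0517 and 0.0992 without any 1 of 10 of the 12 arrays, and for Mcm5 it was between 0.052 and 0.078 without any 1 of 9 of them. Without WT_vehicle 1 it was 0.0517 for Cdk2 and 0.0607 for Cdk4, without WT_DES 2 it was 0.0571 for Cdk4, without aERKO_vehicle 2 it was 0.0538 for Cdk4, and without aERKO_DES 2 it was 0.0501 for Plk1. The other 18 terms kept an adjusted p under 0.05 in all 12 such fits. Under other settings the term of Mcm5 was not called with arrays shifted to the median of tested genes (0.0527), and that of Cdc20 was not called with that shift (0.0778), with the hybridization controls (0.068) or with no filter (0.0601).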

How the results depend on the processing

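The count of the 40 genes that rose in WT was 25 as reported and ran from 20 to 26 when each array was left out, from 19 to 26 for the interaction (23 as reported), and from 24 to 26 for genes lower in aERKO given DES (26 as reported). None of the cell cycle genes was called after DES in aERKO, or between genotypes given vehicle, under any of these or the other alternatives. The WT count was 24 of 39 with the filter set on the 9 arrays outside WT_DES (added after seeing the data). With no filter it was 26 of 42. Those 26 include Ccne2 and Bub1, whose WT_vehicle means lay near or under the background controls, while Cdc20 lost its call. The stricter filter, which also counts the WT_DES arrays, gave 18 of 22. Genes that passed it only through WT_DES were not set apart. Shifting arrays to the median gave 22 of the 40, and the hybridization controls 31. Quantile normalization gave 26, and a fit of only the groups compared 23. The count of genes lower in WT_DES, 1 as reported (Cdkn2a), ran from 0 to 1 over the arrays left out and was 0 with the hybridization controls and 0 with the stricter filter, which left Cdkn2a out of the test. The count higher in aERKO given DES, 1 as reported, also ran from 0 to 1 and was 0 with only the groups compared, 0 with the hybridization controls and 0 with the stricter filter. Cdkn2a in WT was -0.29 as reported and 0.0688 with the hybridization controls. The cause was not tested. Aurka, Aurkb, Birc5, Ccne1, Cdkn1b and Mcm2 gained a call in WT with that shift, which raises WT_DES values of all genes.

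With the replicate number as a block, 25 genes rose in WT, Cdk1 and Cdk6 gained the interaction call (adjusted p = 0.0369 and 0.048), and Aurka and Cdkn1b gained the call between genotypes given DES (0.0333 and 0.0316). The 6 of 18 same-numbered pairs that correlated over 0.1 were those of replicates 2 and 3 among WT_DES, aERKO_DES and aERKO_vehicle. The labels do not say whether same-numbered arrays share more than a number, and this was not tested. The low signal of Bub1 and Ccne2 limits what can be said of them.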
